A study of Homo sapiens with 2 samples.

Results

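The wide TP73 peaks of TL-Om1 cells are the autosomal regions of at least 500 bp that have no other called summit within 1000 bp. They number 1450 of the 18908 peaks in the list, and 7.83% of the 18520 autosomal peaks. Widths chose them: 1664 autosomal peaks reached 500 bp, and 214 of these were left out because another summit lay within 1000 bp. Only start, end and summit positions were used, but these come from the same ChIP signal as fold, q-value and read depth. Those values are therefore given as descriptions, with no test, beside the 6982 autosomal peaks of 200 to 300 bp and beside all autosomal peaks.

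TL-Om1 is an established cell line of adult T-cell leukaemia, a cancer of mature CD4+ T cells linked to the retrovirus HTLV-1. The study holds 1 ChIP library, made with the TP73 antibody ab14430, and 1 input library of whole cell extract without antibody. Both come from cells grown in RPMI-1640 with 10% serum and fixed for 10 min with formaldehyde. With 1 library a group no value has a replicate error. The intervals below are exact 95% binomial or Poisson intervals that cover counting error only, and they treat peaks as independent although neighbouring peaks may not be. The caller's control is called the control here, because the labels name whole cell extract while the peak names contain the text IgG.

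TP73 is a transcription factor of the p53 family. Its members bind DNA as tetramers, at response elements built of paired half-sites, and they activate genes of cell-cycle arrest and apoptosis. TP73 also has roles of its own in the development of the nervous system and of ciliated epithelia. In ChIP-seq a protein held at 1 short site gives fragments that overlap there from both sides, so the read pileup has its summit near the middle of the enriched stretch. A called peak ends where the signal no longer passes the caller's limit. Whether a wide peak holds more than 1 such site was not tested.

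The wide peaks together covered 0.932 Mb, or 17.0% of all base pairs in autosomal peaks. Their median width was 595 bp, with quartiles of 540 and 692 bp, and the widest spanned 1403 bp. Many lay near the limit of the rule: 426 had widths of 500 to 549 bp and 320 had widths of 550 to 599 bp. A further 362 measured 600 to 699 bp, 155 measured 700 to 799 bp and 126 measured 800 to 999 bp. The remaining 61 were 1000 bp or wider. Read depth over each summit was solved from the deposited fold and p-value, and these are the ChIP reads given throughout. At the limit of the rule nothing stepped: 113 isolated peaks of 500 to 509 bp had a median of 116 ChIP reads, and 116 isolated peaks of 490 to 499 bp had a median of 112. The median fold was 30.9 on both sides of the limit.

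Most wide peaks were strong, but not all. Their fold enrichment over the control ran from 5.66 to 81.6, with a median of 31.2, against a median of 11.5 at peaks of 200 to 300 bp and 11.3 at all autosomal peaks. The fold was at least 20 at 999 wide peaks (68.9%), where 22.9% of all autosomal peaks reach that fold. It was at least 50 at 369 wide peaks (25.4%), against 3.55% of all autosomal peaks. Fold and width come from 1 pileup, so these counts show no property beyond the choice of members. Between 25 and 284 ChIP reads covered their summits, with a median of 122 and quartiles of 67 and 202. At peaks of 200 to 300 bp the reads ran from 18 to 149 with a median of 44. The 2 sets thus overlapped between 25 and 149 reads. Above this range no peak of 200 to 300 bp was found. The local control differed little between the sets: the background equalled the genome-wide level, the lowest the caller used, at 52.8% of wide peaks (interval 50.2 to 55.4) and at 49.6% of peaks of 200 to 300 bp (48.4 to 50.8).

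The share of peaks that were wide was higher in each higher class of reads. Among isolated autosomal peaks with 18 to 39 reads, 72 of 6763 were wide (1.06%). The share was 5.29% at 40 to 59 reads, 11.7% at 60 to 99, 18.3% at 100 to 149 and 30.9% at 150 to 199. From 200 reads up, 372 of 517 isolated peaks were wide (71.95%, interval 67.9 to 75.8), and the narrowest of the 517 still measured 328 bp. Within the wide peaks Spearman's rho of reads and width was 0.12 over 1450 peaks, against 0.75 over all 16029 isolated autosomal peaks. Both measures come from the same pileup, and a set chosen by width has a limited range of widths, which can lower rho by itself. Over the 6105 isolated peaks of 200 to 300 bp, also chosen by width, rho was 0.41. Their ranges of widths and reads differ from those of the wide peaks, so how far the choice lowered rho was not tested. The median was 107 reads at 500 to 549 bp and between 124 and 128 reads in each class from 550 to 999 bp. It was 159 reads at 1000 bp or more.

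Summits of the wide peaks were often far from the middle. The median summit position, 50.3% of the width, was central, with summits left of the centre at 717 peaks and to the right at 731. The median distance from the centre was 83 bp, or 13.6% of the width, against 10.5 bp, or 4.33% of the width, at peaks of 200 to 300 bp. The summit lay in the central 20% of the width at 561 of 1450 wide peaks (38.7%, interval 36.2 to 41.3) and at 5681 of 6982 peaks of 200 to 300 bp (81.4%, interval 80.4 to 82.3). Over all autosomal peaks the share was 66.1%. On either side of it, 395 summits lay between 20 and 40% of the width and 402 between 60 and 80%, which is nearly balanced. The outermost 20% at both ends together held 92 summits (6.34%), against 71 (1.02%) at peaks of 200 to 300 bp.

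The wide peaks varied in this respect with their strength. With under 100 reads, 119 of 599 wide peaks had the summit in the central 20% (19.9%, interval 16.7 to 23.3). With 100 to 199 reads it was 172 of 479 (35.9%, interval 31.6 to 40.4), and with at least 200 reads 270 of 372 (72.6%, interval 67.7 to 77.1). The intervals of the 3 classes did not overlap. In the weakest class the distribution of summits had 2 humps: 11.02% of summits fell between 20 and 25% of the width and 9.85% between 75 and 80%, with 5.84% between 45 and 50%. In the strongest class a single hump stood in the middle, with 22.3% of summits between 45 and 50% of the width. Off-centre summits fell about evenly to both sides. In the weakest class 248 lay to the left and 232 to the right, and in the strongest 50 and 52.

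**Figure D1:**
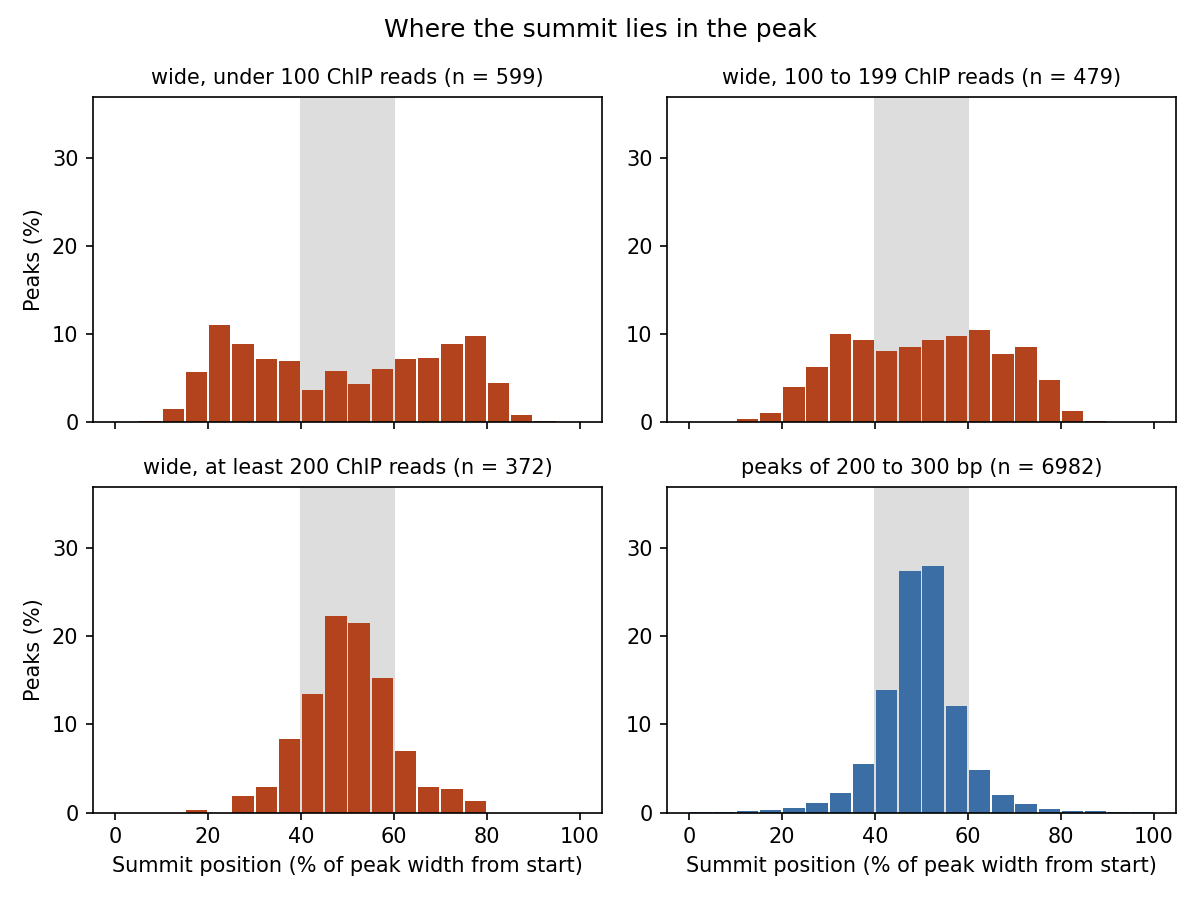
Distribution of the summit position, as percent of the peak width from its start (horizontal axis), for wide peaks in 3 classes of ChIP reads and for autosomal peaks of 200 to 300 bp; bars give the percent of peaks in steps of 5% of the width, and the grey band marks the central 20%. The 599 wide peaks with under 100 reads have humps on both sides of the middle, whereas the 372 with at least 200 reads and the 6982 peaks of 200 to 300 bp have 1 central hump.

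At equal reads the difference from narrower peaks was larger than in the pooled comparison. Among isolated peaks with 60 to 99 reads, the summit lay in the central 20% at 65 of 321 wide peaks (20.2%, interval 16.0 to 25.1) and at 1210 of 1256 peaks of 200 to 300 bp (96.3%, interval 95.1 to 97.3). With 40 to 59 reads the shares were 19.4% and 87.8%, and with 18 to 39 reads 19.4% and 67.4%. With 100 to 149 reads they were 27.5% of 255 wide peaks and 100% of 144 peaks of 200 to 300 bp. The share was higher in each higher class at peaks of 200 to 300 bp. In wide peaks it was about level over the 3 lowest classes. Of the classes that both sets share, only that of 100 to 149 reads stood higher, with an interval (22.1 to 33.4) that overlapped those below. At wide peaks with 150 to 199 reads the share was 45.5%, and from 200 reads up it was 72.6%, with no peak of 200 to 300 bp beside them. As percent of the width, the median distances from the centre were 18.7% and 2.64% with 60 to 99 reads. The width rules bear on this comparison, since a wide peak leaves more room for an offset and a limit of 300 bp leaves little. With 100 to 149 reads the median sides of peaks of 200 to 300 bp, from summit to either end, were already 135 and 150 bp. The differences at equal reads are therefore descriptions of sets chosen by width.

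The shape of each peak can be read from its 2 sides, the distances from the summit to either end. In wide peaks the shorter side had a median of 224 bp and the longer side one of 387 bp, and the longer was 1.75 times the shorter at the median. In peaks of 200 to 300 bp these medians were 108 bp, 134 bp and 1.19 times. The longer side was at least 2 times the shorter at 603 wide peaks (41.6%, interval 39.0 to 44.2) and at 456 peaks of 200 to 300 bp (6.53%, interval 5.96 to 7.14).

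The 2 sides of the wide peaks were closer in length at stronger peaks. The sides and the summit base add up to the width, whose median stayed between 553.5 and 613.5 bp over the classes of reads, so this gives the centring again in base pairs and is no separate result. From 18 to 39 reads up to at least 200 reads, the median shorter side lengthened in every class, over 136.5, 160.5, 188, 204, 236.5 and 261 bp. The median longer side went from 408 bp in the weakest class and 426.5 bp in the next to 332.5 bp in the strongest. The ratio of the sides accordingly went from 3.11 to 1.27 at the median. A shorter side under 150 bp, which every peak of 200 to 300 bp has, was found at 37 of 72 wide peaks with 18 to 39 reads (51.4%, interval 39.3 to 63.4). It was found at 90 of 206 with 40 to 59 reads (43.7%), at 74 of 321 with 60 to 99 (23.1%) and at 15 of 255 with 100 to 149 (5.88%). With at least 200 reads it was found at 0 of 372, which allows a share of up to 0.806% by a limit of 3 counts and of up to 0.987% by the exact interval. Many weak wide peaks thus reached no farther on 1 side than a 200 to 300 bp peak does, while the strongest wide peaks were long on both sides. Over all wide peaks, 913 (62.97%) extended at least 200 bp to both sides.

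**Figure D2:**
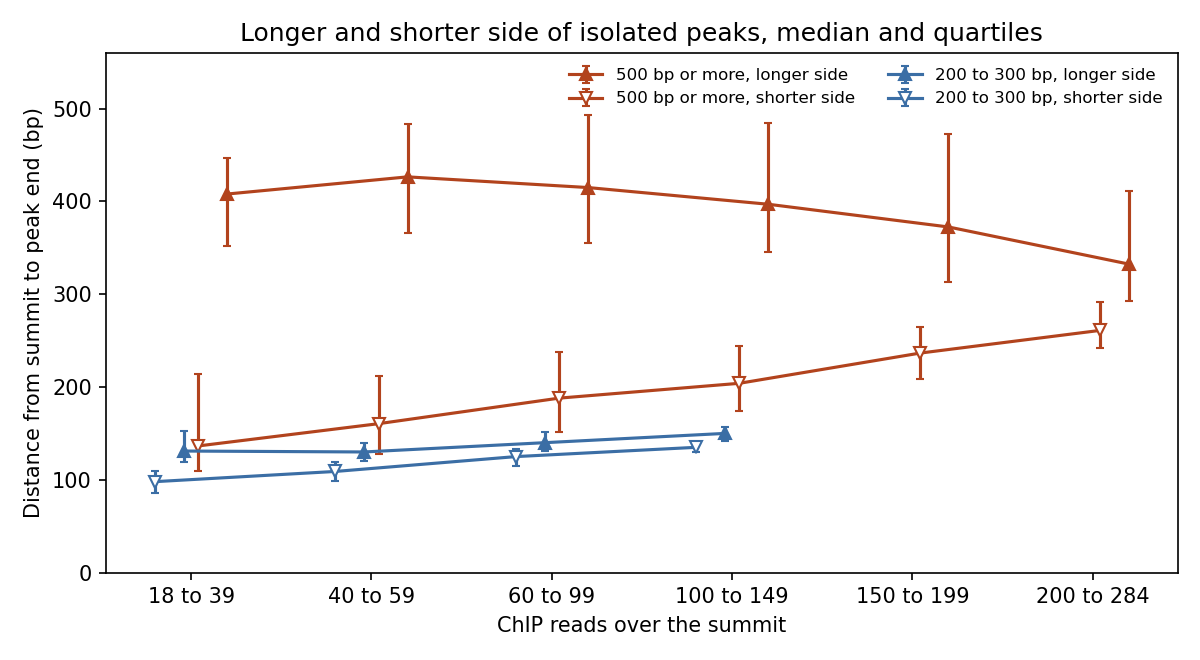
Distance in bp from the summit to the farther end (filled triangles) and nearer end (open triangles) of isolated autosomal peaks, by ChIP reads over the summit; markers are medians, bars quartiles, red for peaks of 500 bp or more and blue for 200 to 300 bp, the latter found up to 149 reads. In wide peaks the sides come together from medians of 408 and 136.5 bp in the weakest class to 332.5 and 261 bp in the strongest.

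Wider members were less centred. The summit lay in the central 20% at 48.6% of peaks of 500 to 549 bp, at 43.75% of 550 to 599 bp and at 37.6% of 600 to 699 bp. From 700 to 799 bp the share was 23.9%, and from 800 to 999 bp it was 20.6%. Among the 61 peaks of 1000 bp or more it was 24.6% (interval 14.5 to 37.3), which overlaps the 2 classes before. At the medians more of the extra width was on the longer side, which follows in part from naming the sides by length. From the 500 to 549 bp class to that of 1000 bp or more, the median longer side went from 313 to 779 bp and the median shorter side from 205.5 to 326 bp.

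The 10 widest members measured 1204 to 1403 bp and lay on 7 chromosomes, and the summit was in the central 20% at 1 of them. The widest, chr13:52157870-52159272 on hg19, had a fold of 61.9 with 238 reads, and its summit stood 273 bp from the start and 1129 bp from the end. The next, chr9:140044762-140046142, had a fold of 13.5 with 46 reads and is also the member with the most off-centre summit, 1257 bp from its start and 123 bp from its end. The peak chr20:32235409-32236779 was long on both sides, 859 and 511 bp, with a fold of 51.0. On chromosome 2, chr2:174828299-174829567 had 204 reads and sides of 425 and 843 bp, chr2:219761212-219762471 had 98 reads over a raised control of 7 reads and sides of 154 and 1105 bp, and chr2:10587751-10588998 had 108 reads and sides of 1036 and 211 bp. On chromosome 12, chr12:121974015-121975326 had 84 reads and sides of 1138 and 173 bp. The other, chr12:46122591-46123852, with 49 reads, was the exception with a central summit, at 54.7% of its width. The 10 were completed by chr1:6647380-6648583, with 168 reads and sides of 333 and 870 bp, and by a peak of 1343 bp on chromosome 8 with 185 reads and sides of 1096 and 246 bp. Reads among the 10 thus ran from 46 to 238, and a strong or a weak summit could head a peak of this length.

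The 10 members with the highest −log10 q-value had another form. They measured 529 to 758 bp, had 273 to 284 reads and folds of 78.5 to 81.6, and the summit was in the central 20% in all 10, between 40.96 and 57.1% of the width. The top peak, chr19:48021235-48021908, reached 317 bp to the left of its summit and 356 bp to the right. The most even of them was chr11:64889475-64890028, with sides of 268 and 285 bp, and the least even chr1:12206331-12206944, with sides of 251 and 362 bp. On chromosome 20, chr20:49461003-49461659 had sides of 370 and 286 bp, and chr20:33999651-34000179, the narrowest of the 10, had sides of 277 and 251 bp. The 10 shared no peak with the 10 widest.

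At the other end stood wide peaks of low enrichment. The 5 with the lowest folds, 5.66 to 6.59, measured 508 to 585 bp and had 26 to 60 reads. The lowest, chr1:110880846-110881354, had 28 ChIP reads over 4 control reads. At chr12:124950746-124951330 the 60 ChIP reads stood over 9 control reads, the highest control of any wide peak, and its fold was 5.95. The peak chr13:110773684-110774191 had 41 reads over 6. The remaining 2 were chr3:9439093-9439603, with 31 reads over 4, and chr2:86667855-86668404, with 26 reads over 3. The summit was in the central 20% at 1 of the 5, the peak on chromosome 3.

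The 5 members with the most off-centre summits, relative to width, all had one side of 59 to 136 bp. Besides the peak on chromosome 9 named above, they were chr19:2096230-2097039 with sides of 79 and 730 bp and 48 reads, chr7:130790521-130791235 with sides of 81 and 633 bp and 50 reads, chr1:10490392-10490891 with sides of 59 and 440 bp and 30 reads, and chr2:10183382-10184528 with sides of 136 and 1010 bp and 107 reads. In 4 of the 5 the reads were at or below 50, against a median of 122 over the wide peaks.

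Wide peaks were found on all 22 autosomes, at 0.521 per Mb of the span between first and last summit (Poisson interval 0.494 to 0.548). The density was 1.66 per Mb on chromosome 19 (1.34 to 2.02), 1.03 on chromosome 22 (0.720 to 1.42) and 0.915 on chromosome 15 (0.720 to 1.15). The fewest per Mb were on chromosome 6, at 0.205 (0.143 to 0.285), and next came 0.231 (0.137 to 0.366) on chromosome 18. These densities follow in part from the number of peaks on each chromosome, so the share of wide peaks among the isolated peaks of the same chromosome was taken as the measure of spread.

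By this share, 97 of 570 isolated peaks on chromosome 19 were wide (17.0%, interval 14.0 to 20.4), against 1353 of 15459 on the other autosomes together (8.75%, interval 8.31 to 9.21). Chromosome 11 followed with 96 of 796 (12.1%, interval 9.88 to 14.5) and chromosome 14 with 62 of 533 (11.6%, interval 9.04 to 14.7). The lowest shares were on chromosome 6, with 35 of 718 (4.87%, interval 3.42 to 6.71), chromosome 18, with 18 of 332 (5.42%, interval 3.24 to 8.43), and chromosome 4, with 48 of 734 (6.54%, interval 4.86 to 8.58). The intervals of 17 chromosomes held the autosomal share of 9.05%, those of 2 lay above it (chromosomes 11 and 19) and those of 3 below (4, 6 and 18). At the 200 to 300 bp width the order was turned at both ends: chromosome 19 had the lowest share of isolated peaks of that width, 30.9%, and chromosome 6 the highest, 44.4%. The extremes were picked from 22 chromosomes, and the intervals do not allow for that.

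**Figure D3:**
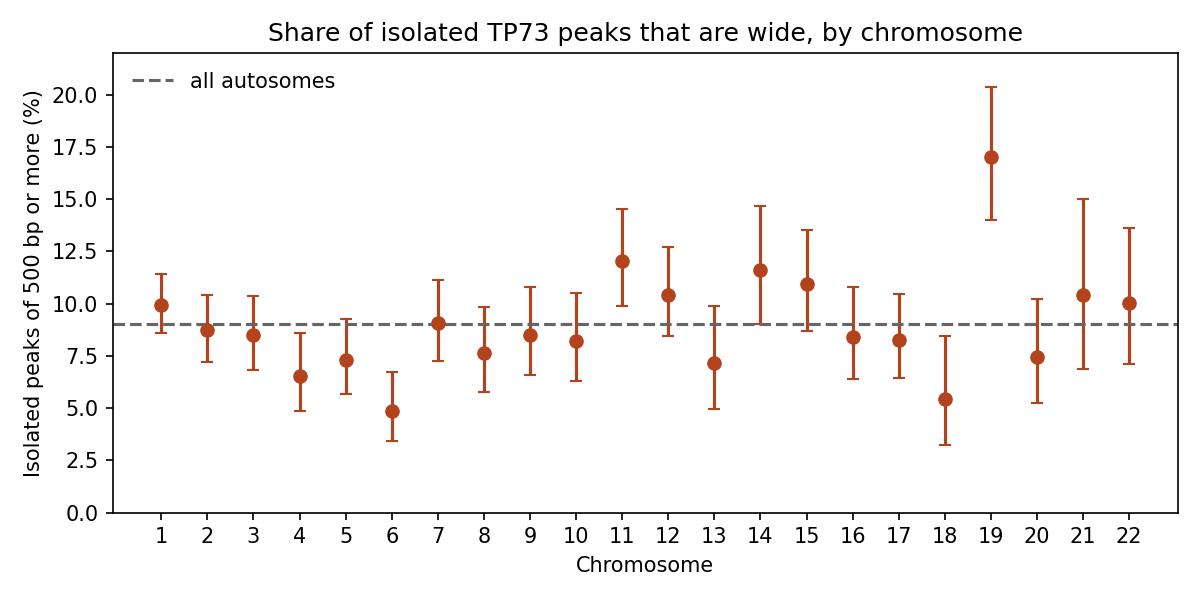
Percent of isolated autosomal peaks that are at least 500 bp wide, for each autosome; points are shares, bars exact 95% binomial intervals, and the dashed line is the share over all autosomes, 9.05%. Chromosome 19 stands at 17.0% and chromosome 6 at 4.87%.

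Chromosome 19 did not have stronger peaks by the median. Isolated peaks there had a median of 44 reads, against 43 on chromosome 6, and medians over the autosomes ran from 40.5 to 49. At least 100 reads were found at 14.7% of isolated peaks on chromosome 19 and at 14.5% on chromosome 6. The control stood at the genome-wide level at 72.1% of these peaks on chromosome 19, the highest of the 22 autosomes, and at 70.2% on chromosome 6, against 50.7% over all isolated autosomal peaks. The lowest was 0.876% on chromosome 15, which also had the highest median of reads, 49. The control thus differed between chromosomes, and its part in their order was not tested. Among peaks with the control at the genome-wide level, 70 of 411 were wide on chromosome 19 (17.0%, interval 13.5 to 21.0) and 695 of 7717 elsewhere (9.01%, interval 8.38 to 9.67). Among peaks with a higher control the shares were 16.98% (11.5 to 23.7) and 8.50% (7.89 to 9.14). At matched reads the share was higher on chromosome 19 than on the other autosomes in all 6 classes, and in 3 of them the intervals did not overlap. Chromosome 19 was picked for its high share, and the splits by control and by reads divide the same peaks, so they are descriptions. With 40 to 59 reads, 23 of 133 isolated peaks on chromosome 19 were wide (17.3%, interval 11.3 to 24.8), against 4.86% elsewhere (4.20 to 5.60). With 60 to 99 reads the shares were 22.5% (15.1 to 31.4) and 11.3% (10.1 to 12.6), and with 100 to 149 reads 38.1% (23.6 to 54.4) and 17.7% (15.7 to 19.8). In the weakest class and in the 2 strongest the intervals overlapped, with 85.7% against 71.4% at 200 reads or more.

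**Figure D4:**
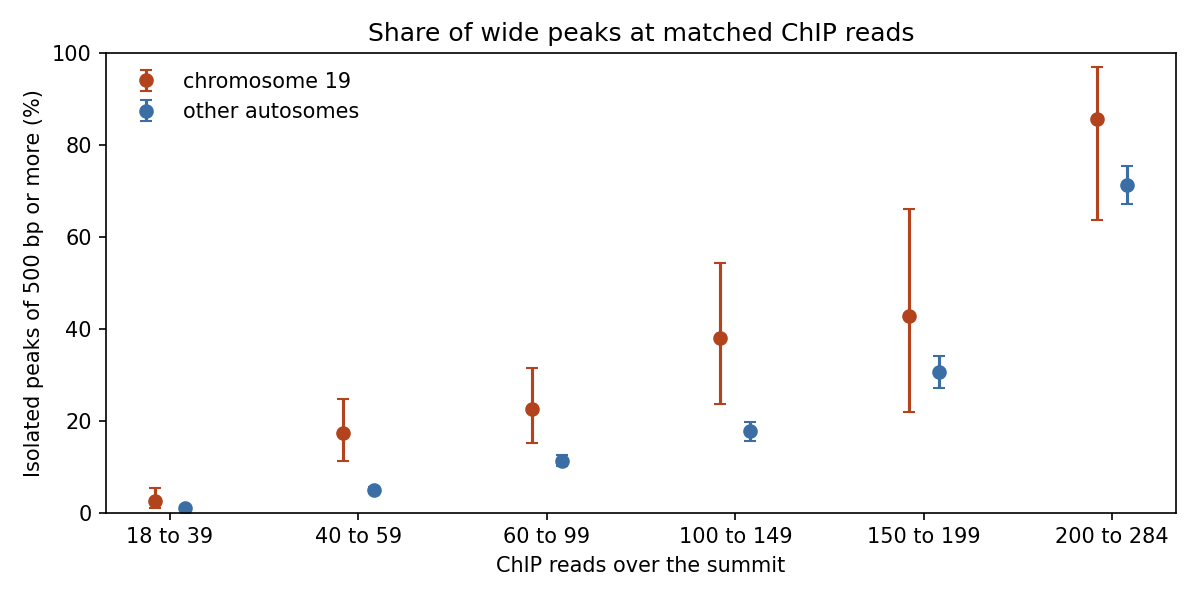
Percent of isolated peaks that are at least 500 bp wide, by ChIP reads over the summit, for chromosome 19 (red) and the other autosomes together (blue); bars are exact 95% binomial intervals. All 6 red points lie above the blue ones, and the bars are apart in the classes of 40 to 59, 60 to 99 and 100 to 149 reads.

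The wide peaks of chromosome 19 had a median width of 553 bp and a median of 94 reads, in both the lowest of the 22 autosomes. On chromosome 19, 7.89% of isolated peaks measured 500 to 549 bp (interval 5.82 to 10.4), against 2.46% elsewhere (2.23 to 2.72). From 600 bp up the shares were 5.96% (4.17 to 8.24) and 4.33% (4.02 to 4.67), and their intervals overlapped. The order of chromosomes depended in part on the width limit. At 400 bp chromosome 19 had the highest share, 26.7%, and chromosome 6 the lowest, 11.6%, as at 500 bp. At 600 bp chromosome 11 had the highest, 6.66%, and chromosome 13 the lowest, 2.17%. Gene density, base composition and mappability were not measured here, and their part in this spread was not tested.

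Few wide peaks stood behind the centring on single chromosomes. The share of wide peaks with the summit in the central 20% ran from 28% on chromosome 21 (7 of 25, interval 12.1 to 49.4) to 45.9% on chromosome 3 (39 of 85, interval 35.0 to 57.0). The intervals of all 22 autosomes held the pooled share of 38.7%, and on chromosome 19 the share was 35.1% (25.6 to 45.4).

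Within chromosomes the wide peaks fell in 873 windows of 1 Mb, of the 2465 windows that held an isolated autosomal peak. A single wide peak was found in 537 of them and 2 in 196, and 11 windows held 6 or more. The fullest was chr11:65000001-66000000, where 11 of 36 isolated peaks were wide (30.6%, interval 16.3 to 48.1), with widths of 511 to 1066 bp and folds of 12.6 to 72.2. The summit lay in the central 20% at 2 of these 11. Next came windows with 7 wide peaks each: chr17:38000001-39000000 (of 30 isolated peaks), chr19:1000001-2000000 (of 31) and chr7:148000001-149000000 (of 21). In the window of chromosome 19 the folds stayed between 7.74 and 29.5 and 1 of 7 summits was central, whereas in that of chromosome 7 it was 5 of 7. On chromosome 14, which held 3 of the 11 windows, the window from 23 to 24 Mb held 6 wide peaks of 666 to 776 bp among 17 isolated peaks, with folds of 26.6 to 78.5. The windows were picked for their counts, so these shares are descriptions.

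Beyond the 1000 bp kept clear by the rule, the nearest other summit stood at a median of 12.4 kb, against 26.9 kb for isolated peaks of 200 to 300 bp. It lay within 2 kb at 222 wide peaks (15.3%, interval 13.5 to 17.3) and at 464 of 6105 isolated peaks of 200 to 300 bp (7.60%, interval 6.95 to 8.29), and within 10 kb at 45.0% (42.5 to 47.6) and 29.3% (28.1 to 30.4). The difference was seen in each class of reads that both sets share. With 60 to 99 reads, 47.98% of wide peaks (interval 42.4 to 53.6) had a neighbour within 10 kb, against 24.9% of the others (22.5 to 27.4), and with 100 to 149 reads the shares were 47.5% (41.2 to 53.8) and 17.4% (11.6 to 24.6). With 18 to 39 reads the intervals overlapped, at 41.7% and 32.7%. Regional density of peaks was not matched in this comparison, and its part was not tested. The isolation rule itself removed like shares: another summit within 1000 bp excluded 12.9% of autosomal peaks of 500 bp or more and would exclude 12.6% of those of 200 to 300 bp.

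Width at the nearest neighbours was near the background. The nearest peak of a wide peak had a median width of 267 bp and measured at least 500 bp in 151 of 1450 cases (10.4%, interval 8.89 to 12.1), against a median of 252 bp and 8.55% (7.86 to 9.28) for isolated peaks of 200 to 300 bp. These intervals overlapped, and 8.98% of all autosomal peaks are that wide (8.58 to 9.41). Between wide peaks themselves the median distance was 261.8 kb, and 103 (7.10%) had another wide peak within 10 kb.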

How the data were processed

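TP73 ChIP-seq of TL-Om1 cells gave single-end reads of 50 bases, per the labels' protocols. The authors deposited 1 list of 18908 peaks. The submitters' processing notes name MACS2 (2.1.1.2016030), Bowtie2, SAMtools and hg19; caller settings and duplicate handling are not stated in them. The deposited values are a fold (the ratio of ChIP pileup to control background), −log10 p-values and q-values, a score (10 times the −log10 p, cut to a whole number, at 18903 peaks) and the summit offset.

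Width is the number of bases from start to end, both included (end minus start in the deposited list, which counts starts from 0). Summit position is taken at the middle of the summit base, and the central 20% reaches from 40 to 60% of the width. Positions in the text are counted from 1. ChIP reads and control reads per fragment length were solved from each fold and p-value with the caller's formulas. The fragment length itself was not estimated, and the shortest peak measured 142 bp. Allowing 1 ChIP read to count as 0.975 units of pileup gave whole reads within 0.02 at 100% of 8983 peaks not used to fit that step. At 105 peaks, 1 of them a wide peak, several solutions existed and the nearest to a whole number was kept.

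The members, the region rules and the comparisons were chosen with earlier results of these data known. Named regions are the 10 widest, the 10 of highest q-value, the 5 of lowest fold and the 5 with the most off-centre summit. Peak lists of 1 library allow no test between conditions, and none was run. Sequence, motif and gene annotation of hg19 were not used here, so the planned motif, gene-start and gene-list descriptions are left out. Alternatives were other width limits, isolation distances, q-value limits and comparison peaks. The tools were scipy 1.17.1, numpy 2.4.6, matplotlib 3.10.9 and pandas 2.3.3 under Python 3.11.15.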

Additional observations from a re-analysis of the deposited data

How the results depend on the processing

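Of 57 values under alternative settings, 37 stayed within the interval of the main value (numbers of peaks within 1.5 times) and 20 moved further. A change of sign was possible only for the differences from 200 to 300 bp peaks, and 0 were seen. Isolation distances of 500 or 2000 bp and a −log10 q-value of at least 10 moved no value beyond these limits. Dropping the isolation rule, under which the chromosome gap was not run, moved none either. With a width limit of 400 bp there were 2908 wide peaks, 48.1% with the summit in the central 20% and a median distance from the centre of 10.6% of the width; the differences from 200 to 300 bp peaks were -33.2 percentage points and 6.29% of the width, against -42.7 and 9.23 at 500 bp. With 600 bp there were 704 peaks, with 30.4%, 16.7%, -50.97 points and 12.4%, and the gap between the highest and lowest chromosome share was 4.49 points, against 12.1. A −log10 q-value of at least 50 gave 43.4%, 11.8%, -53.1 points and a chromosome gap of 23.4 points. Comparison peaks of 250 to 350 bp gave -36.9 points and 8.48%. Of alternatives added after seeing the data, isolated peaks of both widths with 40 to 99 reads gave -70.8 points and 16.8%, and leaving out chromosome 19 gave a chromosome gap of 7.19 points, from chromosome 11 to 6. Motif and gene-start alternatives were not run. No paired analysis was possible because each group has a single library. Sites below the caller's limit, 18 reads at the weakest peak, were not analysed here.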
